A study of Mus musculus with 12 samples.

Results

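The nuclear genes for the subunits of the mitochondrial respiratory chain were followed through 3 compartments of the embryonic growth cartilage and in the *Hox* mutant whose cartilage was captured whole. Genes were chosen by symbol alone, as those starting with *Nduf* and a subunit letter and number (complex I), *Sdha* to *Sdhd* (complex II), *Uqcr* and *Cyc1* (complex III), *Cox5* to *Cox8* with the letters a to c (complex IV) and *Atp5* (complex V, the ATP synthase). Of 36186 gene rows in the deposited data, 86 carried such a symbol, 37 of complex I, 4 of complex II, 9 of complex III, 16 of complex IV and 20 of complex V. Of these, 78 reached 5 NRPKM in at least 3 of the 12 libraries, as did 10936 of all rows, and NRPKM is the authors' normalized RPKM, reads scaled to transcript length and to the mapped reads of a library. The symbols cover a few proteins that are not structural subunits in the present view, such as those of *Atp5s* and *Atp5sl*, and they leave out *Cox4i1*, *Cox4i2* and *Ndufab1*. By symbol, *Ndufa4* and its paralog *Ndufa4l2* are placed in complex I throughout, although *Ndufa4* is now counted as a subunit of complex IV. The subunits encoded by mitochondrial DNA were not analysed here.

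The question was how these genes change as chondrocytes leave the resting state, divide and enlarge, and whether the *aadd* cells differ in them from resting cells. All 12 libraries came from forelimb zeugopods, the radius and ulna region, of E15.5 mouse embryos on a mixed 129/CD-1 background. Laser capture microdissection (LCM) took mostly chondrocytes with some perichondrium, and 20 ng of total RNA entered the amplification for each library. There were 3 libraries each of WT resting, WT proliferative and WT hypertrophic cells, all with the *Hox* genes intact. The other 3 libraries came from *aadd* embryos, homozygous for frameshifts in the first exons of *Hoxa9*, *Hoxa10*, *Hoxa11*, *Hoxd9*, *Hoxd10* and *Hoxd11*, each made with a LoxP insertion and a small deletion. The *aadd* chondrocytes were captured as a whole because the mutant zeugopod was small and histologically uniform, and the labels call them resting. The labels call the hypertrophic samples hyperproliferative, and the name hypertrophic is that of the study. In such bulk samples fewer cells of a type and less RNA per cell cannot be told apart.

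Complex I takes electrons from NADH and complex II takes them from succinate. Complex III passes them by way of cytochrome c to complex IV, which reduces oxygen, and the proton gradient built on the way drives the ATP synthase. The core subunits carry the iron-sulfur clusters, flavins, hemes or catalytic sites, and the accessory subunits surround them. Several subunits exist as paralogs used by muscle, testis, lung or cells short of oxygen. Cartilage has no blood vessels and its cells are known for glycolysis at low oxygen, while the hypertrophic zone is where vessels, bone-forming cells and osteoclasts enter. The factors NRF1, GABPA (an ETS factor) and YY1 are known activators of many respiratory chain genes.

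Promoters of 66 of the 78 genes were matched in RefSeq, as 250 bases before and 50 after the start. A gene was counted when any of its promoters held the letters. The 8-letter core of the NRF1 site, GCGCATGC, was found on either strand in 10 of the 66 (15.2%). It was found in 6.4% of the 8563 genes tested that had a promoter and in 3.05% of 27025 genes in all. The YY1 letters AAGATGGC were in 11 (16.7%, against 5.76% of those tested and 3.19% of all), and the ETS letters CCGGAAGT were in 5 (7.58%, against 9.74% and 4.31%). The short core ACGTG that hypoxia-inducible factors bind was in 17 (25.8%, against 30.2% and 21.8%). These are matches of letters and not bound sites. The 100 bases before the start are shown for 4 genes that were called higher in WT proliferative or WT hypertrophic cells below and for *Atp5j* (the start whose promoter holds the YY1 letters), with the matches in capitals: the palindrome formed by overlapping NRF1 cores on both strands in *Atp5g2*, *Atp5k* and *Ndufa11*, the ETS letters in *Uqcr11* and the YY1 letters in *Atp5j*. They lie in GRCm38.p6 at chr15:102671048-102671147 on the minus strand for *Atp5g2*, chr5:108434400-108434499 on the minus strand for *Atp5k*, chr17:56717662-56717761 on the plus strand for *Ndufa11*, chr10:80406822-80406921 on the minus strand for *Uqcr11* and chr16:84834977-84835076 on the minus strand for *Atp5j*.
Atp5g2: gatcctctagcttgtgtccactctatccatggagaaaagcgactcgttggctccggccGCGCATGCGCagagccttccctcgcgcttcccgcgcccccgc
Atp5k: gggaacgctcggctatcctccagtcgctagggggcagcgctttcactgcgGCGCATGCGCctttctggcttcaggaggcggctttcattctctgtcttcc
Ndufa11: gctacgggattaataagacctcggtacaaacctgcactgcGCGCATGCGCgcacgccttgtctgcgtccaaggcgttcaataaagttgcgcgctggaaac
Uqcr11: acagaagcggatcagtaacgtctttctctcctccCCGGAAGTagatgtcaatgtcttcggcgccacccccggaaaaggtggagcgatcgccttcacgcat
Atp5j: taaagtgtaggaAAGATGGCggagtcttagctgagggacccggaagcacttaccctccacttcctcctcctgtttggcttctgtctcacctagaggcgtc

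Median log2 fold changes of carriers and of the other members are given as a description. For NRF1 the medians between WT proliferative and WT resting were 0.48 for the 10 carriers and 0.21 for the 56 others, and between WT hypertrophic and WT resting 0.62 and 0.58. For YY1 they were 0.22 and 0.27, then 0.52 and 0.60. The ETS letters went with lower medians, 0.02 for 5 carriers and 0.24 for 61 others, then 0.39 and 0.60. For the hypoxia-inducible factor core they were 0.25 and 0.23, then 0.58 and 0.60. These medians were not tested against each other.

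The 6 targeted genes were still transcribed in *aadd* cells, at 5.17 to 52.1 NRPKM, and *Hoxd11* was at 25.1, 30 and 35.4 NRPKM against 4.34 to 7.31 in WT resting libraries. A frameshift need not lower the transcript, so these values do not check the genotype. Some libraries stood apart before any comparison. In the WT hypertrophic group, replicates 2 and 3 held 1308 and 963 NRPKM summed over 10 osteoclast markers, against 70.3 in replicate 1 and 40.9 to 70.4 in the 9 libraries of the other groups. *Acp5*, the osteoclast acid phosphatase, was at 246 and 200 NRPKM in those replicates and at 1.11 to 2.92 in every other library. Endothelial markers summed to 324 and 227 NRPKM in replicates 2 and 3, to 24.4 in replicate 1 and to 10.6 to 59.9 in the other groups. Macrophage markers summed to 287, 229 and 24.7 NRPKM in the same order and to 13.4 to 45.4 in the other groups. In replicates 2 and 3 that sum lay mostly in *Cd68* (174 and 160 NRPKM), *Csf1r* (56.7 and 49.6) and *Lyz2* (37.1 and 10.5). There *Emr1*, *C1qa*, *C1qb*, *C1qc*, *Mrc1* and *Aif1* stayed within the range of the other groups, and *Fcgr1* was at most 1.19 NRPKM. Erythroid markers were at 374 and 412 NRPKM in replicates 2 and 3 and at 36.9 to 191 elsewhere. Muscle markers were highest in WT proliferative replicate 3 with 85 NRPKM. Osteoblast markers were at 1779, 3509 and 4497 NRPKM in the WT hypertrophic libraries and at 131 to 1186 in the other groups. Replicate 1 also kept 3126 NRPKM of cartilage matrix genes against 693 and 995, and had 3.05 NRPKM of *Mmp13*, the collagenase of terminal hypertrophic cells, against 735 and 661. The hypertrophic markers as a list were highest in all 3 WT hypertrophic libraries, at 1235, 2626 and 2590 NRPKM, with 546 to 726 in WT proliferative and at most 134 elsewhere. The excess of replicates 2 and 3 lay mostly in *Spp1*, also on the osteoblast list (24.1, 1083 and 979 NRPKM), and in *Mmp13*. By gene, *Col10a1* (264, 166 and 221 NRPKM), *Ihh* (56.3, 9.54 and 15.3), *Panx3*, *Pth1r*, *Runx2* and *Mef2c* were highest in replicate 1 of the group. *Alpl* and *Vegfa* were lowest in it. In WT resting, replicate 1 had the highest value of its group for 64 of the 78 genes. Results are therefore given with and without WT hypertrophic replicate 1 and WT resting replicate 1. The depth implied by the most frequent value of sensory receptor and keratin-associated genes was 1890000 to 3240000 reads a library. That estimate takes NRPKM as plain RPKM, although the values were normalized further, so read numbers are approximate. The smallest p-value that an exact two-sided permutation test of 3 against 3 libraries can give is 0.1.

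The respiratory chain genes as a whole were lowest in WT resting and *aadd* cells and highest in WT hypertrophic cells. Their summed level was 3621 ± 564 NRPKM in WT resting, 4509 ± 289 in WT proliferative, 5328 ± 712 in WT hypertrophic and 3653 ± 504 in *aadd* (SD, n = 3 libraries each). As a share of the sum over all 10936 genes this was 1.38% ± 0.182, 1.67% ± 0.0748, 1.97% ± 0.228 and 1.41% ± 0.176. The share was 1.18 times higher in WT hypertrophic than in WT proliferative and 1.42 times higher than in WT resting, with an exact two-sided permutation p of 0.1 in each case, the smallest this design allows. WT hypertrophic replicate 1 and WT proliferative replicate 2 had nearly the same share, 1.7312% and 1.7304%. For the summed level itself the exact permutation p was 0.2 between WT hypertrophic and WT proliferative, where these libraries overlapped with 4611 and 4745 NRPKM, 0.1 between WT hypertrophic and WT resting, 0.2 between WT proliferative and WT resting and 0.9 between *aadd* and WT resting. Between WT proliferative and WT resting the share was 1.21 times higher (exact permutation p = 0.2). Between *aadd* and WT resting the share was 1.02 times higher (exact permutation p = 0.7).

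Of the 78 genes, 63 had their highest mean in WT hypertrophic, 11 in WT proliferative, 4 in WT resting and 0 in *aadd*. The lowest mean was in WT resting for 38, in *aadd* for 31, in WT proliferative for 7 and in WT hypertrophic for 2, which were *Ndufa4l2* and *Cox6b2*. For 53 genes the WT proliferative mean lay between those of the other WT compartments. Over the 4 groups, limma's F test gave an unadjusted P up to 0.05 for 34 of the 78, where 31% of all genes tested did so, and a Benjamini-Hochberg adjusted P under 0.05 for 10, where 13.8% did. The 10 were *Uqcr11*, *Sdhc*, *Cox8a*, *Cox6a1*, *Ndufa4l2*, *Ndufb2*, *Atp5g3*, *Ndufa4*, *Ndufa11* and *Ndufb4*, with adjusted P from 0.0111 to 0.0485. Without WT hypertrophic replicate 2, 18 of the 78 had an unadjusted P up to 0.05 (23.9% of all genes).

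**Figure D1:**
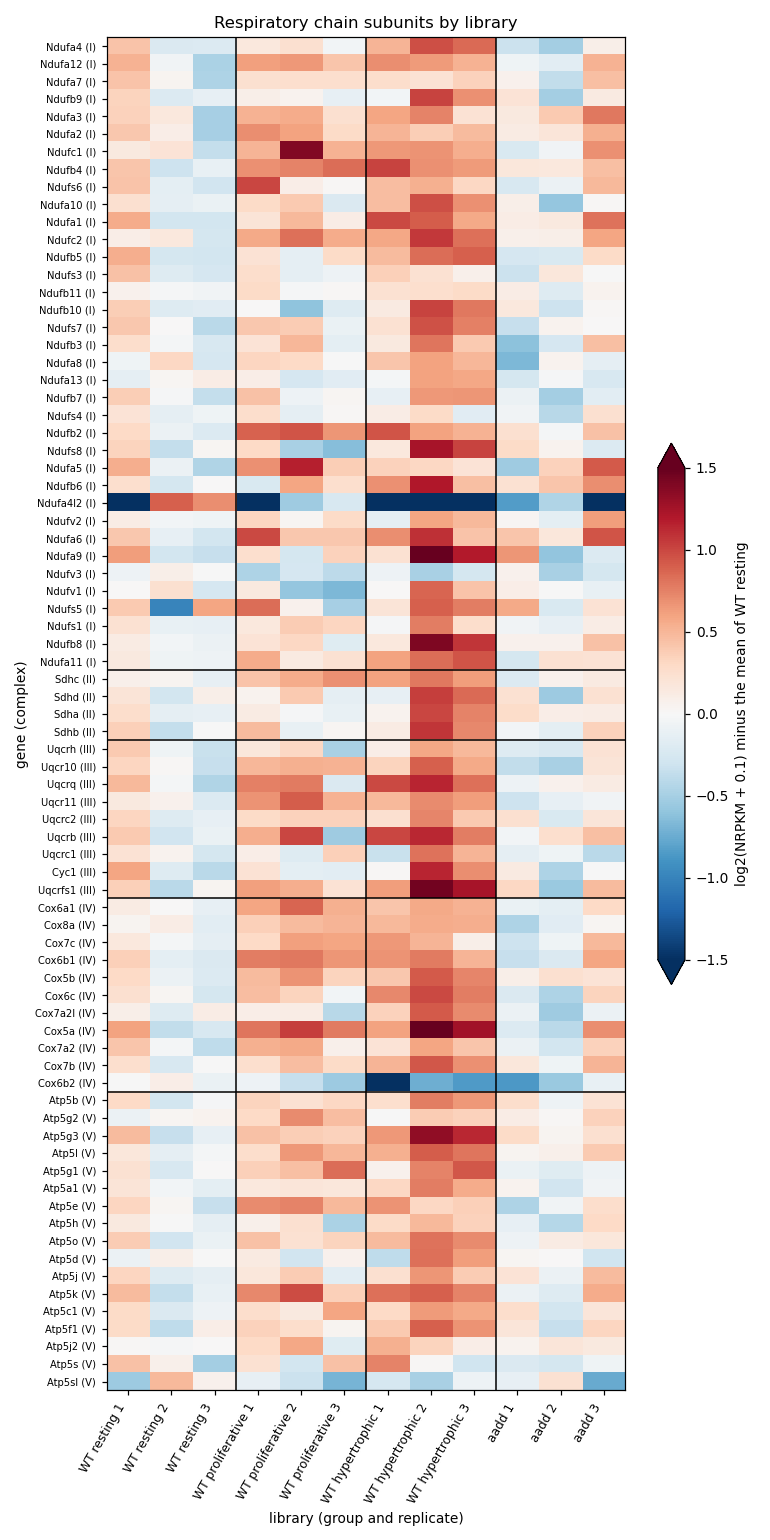
Each row is a respiratory chain gene (77 shown), ordered by complex and by mean level, and each column a library, with color for log2(NRPKM + 0.1) minus the mean of the WT resting libraries (red higher, blue lower, limits at 1.5). Most rows redden from WT resting to WT hypertrophic replicates 2 and 3, while *Ndufa4l2* and *Cox6b2* turn blue in all 3 WT hypertrophic libraries.

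Levels per kilobase differed widely within each complex. *Atp5b*, which encodes the catalytic beta subunit of the ATP synthase, had the highest mean over the 12 libraries, 234 NRPKM. In complex IV *Cox6a1* led with 157 NRPKM, in complex III *Uqcrh*, the hinge protein, with 101, in complex I *Ndufa4* with 96.8 and in complex II *Sdhc*, a membrane anchor, with 54.9. The lowest genes that passed the filter were *Atp5sl* with 4.79, *Ndufa11* with 10.1, *Cox6b2* with 10.5, *Uqcrfs1* with 27.7 and *Sdhb* with 35.4 NRPKM. The 8 genes that did not pass were isoforms known from muscle or testis (*Cox6a2*, *Cox7a1*, *Cox7b2*, *Cox8b*, *Cox8c*), for which the highest value in any library was 10.1 NRPKM of *Cox7a1* in WT hypertrophic replicate 2, and *Atp5c1-ps*, *Atp5l-ps1* and *Atp5l2*, listed at 0 in all 12 libraries. Reads with several positions had been removed by the authors, and over 50% of the 50-base stretches of the *Atp5g2*, *Atp5l*, *Atp5g1*, *Cox7c*, *Atp5h* and *Atp5o* transcripts also occur in another annotated gene. The levels of these 6 genes are uncertain for that reason.

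In WT proliferative cells several small accessory subunits were higher than in WT resting cells, most of all in complex IV. Of the 78 genes 18 were higher and 1 was lower at an unadjusted P up to 0.05 in limma, the threshold of the study, where 7.11% and 9.94% of all genes tested were. The median log2 fold change of the members was 0.24, that of all genes tested -0.06, and 63 members lay above 0. No member met the further condition of a 2-fold change, which 5.53% of all genes met, and 0 had a Benjamini-Hochberg adjusted P under 0.05, which 0.622% had. By complex, 6 of 11 genes of complex IV were called higher, 5 of 17 of complex V, 2 of 9 of complex III, 1 of 4 of complex II and 4 of 37 of complex I. None of the 7 core subunits of complex I was called, and their median log2 fold change was 0.02.

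*Cox5a*, a matrix-side subunit of complex IV, was at 45.1, 23 and 25.2 NRPKM in WT resting and at 51.9, 61 and 50.9 in WT proliferative libraries. The groups did not overlap, although resting replicate 1 came close. Its log2 fold change was 0.87 ± 0.28 (SE, n = 3 against 3, limma, Benjamini-Hochberg adjusted P = 0.22). *Ndufb2*, an accessory subunit in the membrane arm of complex I, went from 26.9, 20.6 and 19 to 40.5, 42.3 and 34.9 NRPKM. All 3 proliferative libraries lay above all 3 resting libraries, with a log2 fold change of 0.83 ± 0.19 (SE, limma, adjusted P = 0.135), and the unadjusted P stayed at or under 0.05 with any single library left out. *Uqcr11*, the smallest complex III subunit, went from 47.1, 44.4 and 37 to 68.1, 80.4 and 61.2 NRPKM, also without overlap and in every such fit (log2 fold change 0.70 ± 0.18, limma, adjusted P = 0.166). *Cox6b1*, which helps to hold the complex IV dimer together, was at 99.7, 70.2 and 66.6 in WT resting and at 132, 135 and 123 NRPKM in WT proliferative cells. Here too the groups were separate (log2 fold change 0.74 ± 0.20, limma, adjusted P = 0.178).

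Others of the 5 largest rises were in complex I, *Ndufc1* with 0.80 and *Ndufb4* with 0.76 on the log2 scale, and the complex II anchor *Sdhc* rose by 0.55 (limma adjusted P = 0.19) from 43.3 ± 3.16 to 63.7 ± 5.56 NRPKM (SD, n = 3). The only member called lower was *Ndufv3*, an accessory subunit beside the NADH site, which was at 22.9, 25.6 and 24.1 in WT resting and at 17.5, 20.2 and 18.4 NRPKM in WT proliferative libraries (log2 fold change -0.37 ± 0.15 SE, limma, adjusted P = 0.286). The called genes depended on single libraries. Without WT resting replicate 1, 25 members were called higher and 2 lower, where 8.84% of all genes were higher and 959 of 10936 were lower. Without WT resting replicate 2 or 3, 9 and 7 members were called higher (4.98% and 4.54% of all genes), and without WT proliferative replicate 2 it was 7 (5.13% of all genes). Libraries of these groups that share a replicate number are treated as pairs in the alternative with a replicate block, in which 19 were called higher and 1 lower. The share of all genes called in that fit was not counted.

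**Figure D2:**
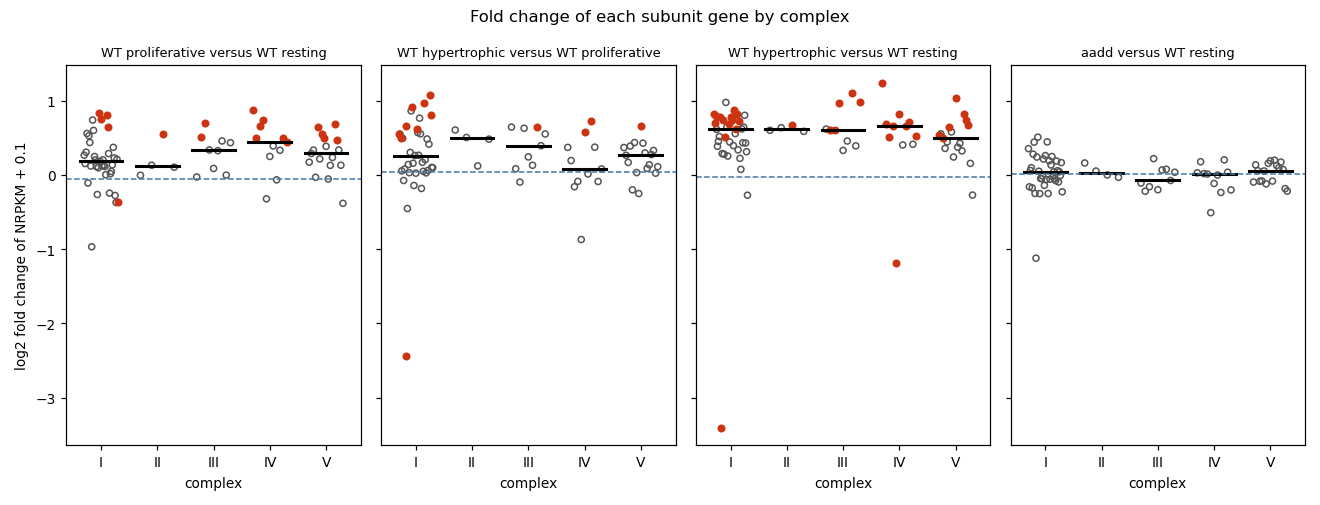
Each point is a respiratory chain gene, with the log2 fold change of NRPKM + 0.1 on the vertical axis by complex, in 4 panels for the 4 comparisons, where filled red points have an unadjusted P up to 0.05 in limma, black bars are medians by complex and the dashed line is the median of all genes tested. Most points lie above 0 in the 3 comparisons between WT compartments, and in *aadd* versus WT resting they scatter about 0 with no red point.

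Transcript length ran with the change in WT proliferative cells. Of 35 members with a transcript under 750 bases 14 were called higher and 0 lower, with a median log2 fold change of 0.39, and of 19 members with at least 1400 bases 1 was higher and 1 lower, with a median of 0.13. Other genes with transcripts under 750 bases moved in the same sense, with 38 of 257 called higher, 6 lower and a median of 0.21, while 8773 other genes of at least 1400 bases had a median of -0.07. Spearman's rho between log2 fold change and transcript length was -0.40 over the 78 members and -0.09 over 10103 other genes with a length, given as a description since genes of a library are not independent. In WT hypertrophic versus WT proliferative cells rho was 0.21 over the members. The part of length in these fold changes was not tested.

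**Figure D3:**
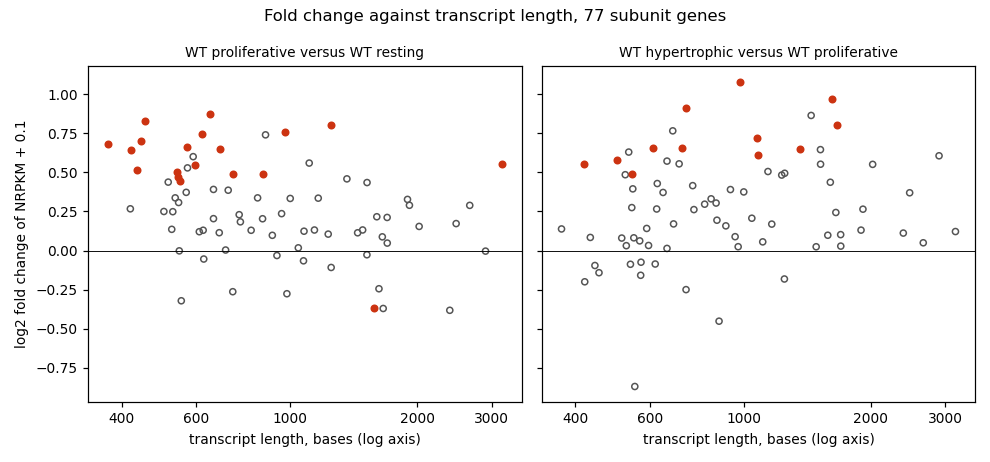
Log2 fold change of NRPKM + 0.1 against transcript length on a log axis for 77 respiratory chain genes (*Ndufa4l2* left out), with WT proliferative versus WT resting on the left and WT hypertrophic versus WT proliferative on the right, where red points have an unadjusted P up to 0.05 in limma. On the left most red points lie at short transcripts, and on the right they are spread along the axis.

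From the WT proliferative to the WT hypertrophic compartment core subunits of complex I were among the genes called higher, and *Ndufa4l2* fell. At an unadjusted P up to 0.05, 12 of 78 members were higher and 1 was lower, where 10.7% and 8.6% of all genes tested were. The median log2 fold change was 0.26 against 0.04 for all genes, and 66 members lay above 0. With a 2-fold change as a further condition 2 members remained, *Ndufs8* and *Ndufa4l2* (9.67% of all genes), and in limma 0 of the 78 had a Benjamini-Hochberg adjusted P under 0.05, as did 0% of all 10936 genes. By complex, 8 of 37 genes of complex I were called higher, 2 of 11 of complex IV, 1 of 9 of complex III, 1 of 17 of complex V and 0 of 4 of complex II. The 7 core subunits of complex I had a median of 0.41.

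*Ndufs8*, a core subunit with iron-sulfur clusters near the quinone site, was at 29.9, 17.3 and 15.6 NRPKM in WT proliferative and at 27.3, 57.6 and 49.2 in WT hypertrophic libraries. Hypertrophic replicates 2 and 3 were far above the proliferative range and replicate 1 lay inside it (log2 fold change 1.08 ± 0.38 SE, limma, adjusted P = 0.219). *Ndufv1*, which holds the flavin that takes electrons from NADH, was at 21.4, 13 and 12.1 in WT proliferative and at 19.4, 35.4 and 26 NRPKM in WT hypertrophic libraries, with replicate 1 again inside the proliferative range (log2 fold change 0.80 ± 0.32 SE, limma adjusted P = 0.254). The accessory subunit *Ndufb10* and *Cox7a2l*, a factor for supercomplexes of III and IV, were also among the 5 largest rises, with 0.91 and 0.72 on the log2 scale.

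The pattern of replicate 1 held over the members. Against the WT proliferative range, WT hypertrophic replicate 1 was above all 3 libraries for 27 of 78 genes and within them for 36, while replicate 2 was above for 54 and replicate 3 for 44, where 26.5%, 39.9% and 34.3% of all genes tested were above. The median level of the members relative to the WT resting mean was 0.35, 0.79 and 0.57 on the log2 scale in hypertrophic replicates 1, 2 and 3 and 0.30, 0.34 and 0.19 in the proliferative replicates. For the 7 core subunits of complex I it was 0.16, 0.87 and 0.48 and then 0.26, -0.13 and -0.10. Hypertrophic replicate 1, with summed osteoclast, endothelial and macrophage markers at the level of the other groups, was thus close to the proliferative libraries in these genes. The part of cells with such markers in the higher values of replicates 2 and 3 was not tested. Without replicate 1, 28 members were called higher and 1 lower (18.3% of all genes were higher and 1764 of 10936 lower). In limma 12 then had an adjusted P under 0.05 (17.4% of all genes). Without replicate 2, 0 members were called higher and 2 lower, and without replicate 3 it was 1 and 1 (5.56% and 5.4% of all genes were higher). Without proliferative replicate 2 it was 5 and 1 and without proliferative replicate 3 it was 3 and 2 (7% and 7.32% of all genes were higher). For the fits without replicate 2 or 3 of either group, the share of all genes called lower was not counted.

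**Figure D4:**
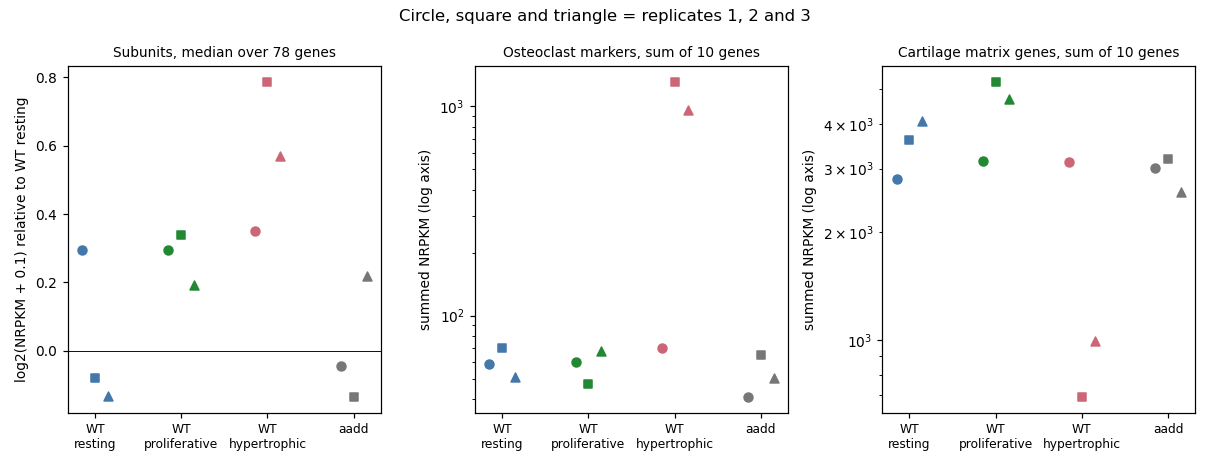
Each point is a library, with the shape giving the replicate: on the left the median over 78 respiratory chain genes of log2(NRPKM + 0.1) relative to the WT resting mean, in the middle the summed NRPKM of 10 osteoclast markers and on the right that of 10 cartilage matrix genes, both on log axes. WT hypertrophic replicates 2 and 3 are highest on the left and in the middle and lowest on the right, and replicate 1 sits near the WT proliferative libraries in all 3 panels.

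Across the whole sequence, from WT resting to WT hypertrophic cells, close to all members pointed upward. Of the 78 genes 74 had a log2 fold change above 0, with a median of 0.59 against -0.02 for all genes tested. At an unadjusted P up to 0.05, 35 were higher and 2 were lower, where 12% and 14.4% of all genes were. With a 2-fold change in addition there were 5 (*Cox5a*, *Uqcrfs1* and *Atp5g3* higher, *Ndufa4l2* and *Cox6b2* lower, with 13% of all genes), and only *Ndufa4l2* had a Benjamini-Hochberg adjusted P under 0.05 in limma, which 6.36% of all genes had. All 5 complexes took part, with 14 of 37 genes of complex I called higher, 1 of 4 of complex II, 5 of 9 of complex III, 8 of 11 of complex IV and 7 of 17 of complex V, and with medians by complex from 0.50 to 0.66.

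*Uqcrfs1*, the Rieske iron-sulfur protein of complex III, was at 24.7, 14.6 and 20 NRPKM in WT resting and at 30, 52.9 and 45.8 in WT hypertrophic libraries. All hypertrophic libraries lay above all resting ones, and the unadjusted P stayed at or under 0.05 with any single library left out (log2 fold change 1.11 ± 0.30 SE, limma, adjusted P = 0.0807). *Atp5g3*, a gene for the c ring of the ATP synthase, went from 110, 62.6 and 72.8 to 125, 200 and 174 NRPKM, separate in every library (log2 fold change 1.04 ± 0.29 SE, limma, adjusted P = 0.0857). *Cox5a* went from 45.1, 23 and 25.2 to 45, 109 and 71.3 NRPKM, with hypertrophic replicate 1 just under resting replicate 1 (log2 fold change 1.24 ± 0.41 SE, limma, adjusted P = 0.118). *Uqcrq* and *Uqcrb*, small subunits of complex III, made up the 5 largest rises with 0.99 and 0.97 on the log2 scale.

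Apart from *Uqcrfs1* with 1.11, the catalytic genes named for the other complexes had log2 fold changes near the median of the members. *Sdha*, the flavoprotein of complex II, was at 44.3, 33.7 and 34 NRPKM in WT resting, 40.2, 36.5 and 34.3 in WT proliferative and 38.5, 74.1 and 62.2 in WT hypertrophic libraries, so that replicates 2 and 3 of the last stood out alone (log2 fold change between hypertrophic and resting 0.60 ± 0.29 SE, limma adjusted P = 0.241). *Cyc1*, cytochrome c1 of complex III, had the same shape with 27.7, 60.1 and 44.2 NRPKM in WT hypertrophic and 41.2, 23.9 and 20.6 in WT resting libraries (0.62 ± 0.38, limma adjusted P = 0.348). *Atp5b* was at 196 ± 39.3 NRPKM in WT resting and 288 ± 51.4 in WT hypertrophic cells (SD, n = 3) and did not pass the test (0.55 ± 0.23 SE, limma adjusted P = 0.193), and the alpha and gamma subunits *Atp5a1* and *Atp5c1* passed it with 0.54 and 0.50 (limma adjusted P = 0.148 and 0.182). *Ndufs1*, *Ndufs3* and *Ndufv2*, core subunits of complex I, had log2 fold changes of 0.34, 0.22 and 0.31 and were not called in any comparison. *Ndufs7*, also of the core, and the complex II subunits *Sdhb* and *Sdhd* had 0.64, 0.64 and 0.59 and were not called either. In *Sdhd*, for example, the WT hypertrophic libraries were at 36.6, 81.6 and 71.4 NRPKM and the WT resting libraries at 45.4, 32.7 and 42.2, so that replicates 2 and 3 lay above the resting range and replicate 1 inside it.

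Without WT hypertrophic replicate 1, 52 members were called higher between WT hypertrophic and WT resting (18.7% of all genes), and 25 had an adjusted P under 0.05 (24.2% of all genes). Without WT resting replicate 1 it was 47 (14.2% of all genes). Leaving out WT resting replicate 2 or 3 gave 17 and 14 (7.93% and 8.3% of all genes), and leaving out WT hypertrophic replicate 2 or 3 gave 16 and 21 (7.88% and 8.17% of all genes). The 3 comparisons with WT resting share its 3 libraries, so that their fold changes are not independent of each other.

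*Ndufa4l2*, a paralog of *Ndufa4* known as a target of hypoxia-inducible factor, ran against most of the other members. It was at 13.7, 77.7 and 67.7 NRPKM in WT resting, 9.41, 28.7 and 35.4 in WT proliferative, 5.77, 2.56 and 3.83 in WT hypertrophic and 23.3, 30.5 and 9.77 in *aadd* libraries. All WT hypertrophic libraries lay below all 9 others, and replicate 1 was the lowest of its group in WT resting and WT proliferative. The log2 fold change was -3.40 ± 0.70 (SE) between WT hypertrophic and WT resting (limma, Benjamini-Hochberg adjusted P = 0.0443, between 0.0117 and 0.156 over the alternatives), a mean of 4.06 against 53 NRPKM. Between WT hypertrophic and WT proliferative it was -2.44 ± 0.56 (limma, adjusted P = 0.148), and the unadjusted P stayed at or under 0.05 in both comparisons with any single library left out. *Ndufa4* itself, now counted as a subunit of complex IV, was at 110, 70.7 and 71.6 NRPKM in WT resting, 92.3, 97.2 and 80.1 in WT proliferative and 117, 161 and 149 in WT hypertrophic libraries. All 3 WT hypertrophic libraries lay above all 9 others (log2 fold change against WT proliferative 0.66 ± 0.20 SE, limma adjusted P = 0.185). *Ndufa4l2* lies at chr10:127514939-127517156 of GRCm38 and shares exonic sequence on the opposite strand with *Shmt2*, and the use of strand in counting is not given in the sources used here.

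Other paralogs were found in complexes IV and V. *Cox6b2*, known from testis, was at 14, 15.2 and 13.2 NRPKM in WT resting, 13.3, 11.1 and 9.66 in WT proliferative, 3.47, 8.45 and 7.77 in WT hypertrophic and 7.72, 9.55 and 13.1 in *aadd* libraries. It was lower in WT hypertrophic than in WT resting libraries without overlap (log2 fold change -1.19 ± 0.35 SE, limma, adjusted P = 0.097), although the lowest value, in replicate 1, rests on an inferred 4 to 5 reads. *Cox6b1* was at 130 ± 6.08 NRPKM in WT proliferative and 123 ± 11.2 in WT hypertrophic cells (SD, n = 3). Of the c ring genes, *Atp5g1* and *Atp5g2* were called higher in WT proliferative than in WT resting cells (log2 fold changes 0.55 and 0.49, limma adjusted P = 0.267 and 0.243), and *Atp5g3* in the comparisons with WT hypertrophic cells. The difference between these paralogs was not tested, all 3 had a higher mean in WT hypertrophic than in WT resting cells, and the levels of *Atp5g1* and *Atp5g2* are uncertain as said above. *Cox8a*, the common form of the smallest complex IV subunit, was at 98, 104 and 85.9 NRPKM in WT resting, 123, 132 and 136 in WT proliferative and 134, 141 and 139 in WT hypertrophic libraries. Both later compartments lay above WT resting in every library (log2 fold changes 0.45 and 0.53, limma adjusted P = 0.243 and 0.0993). *Cox7a2* was at 41.3 ± 11.4, 53.4 ± 9.64 and 53.6 ± 7.22 NRPKM in the 3 WT compartments and was not called.

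The genes for subunit 4 of complex IV lie outside the symbols used but belong to the same set. *Cox4i1*, the common form, was at 92.2, 84.8 and 58.2 NRPKM in WT resting, 97.7, 95.7 and 103 in WT proliferative, 86.8, 160 and 142 in WT hypertrophic and 75, 62.4 and 96.5 in *aadd* libraries and was not called in any comparison. *Cox4i2*, the form of lung and of cells short of oxygen, was at 18.3, 34 and 19 NRPKM in WT resting, 29.2, 31.3 and 17.3 in WT proliferative, 13, 18.8 and 20.9 in WT hypertrophic and 9.59, 16.7 and 10.2 in *aadd* libraries. All *aadd* values lay below all WT resting values but overlapped those of WT hypertrophic cells. *Cox4i2* was called lower in *aadd* than in WT resting cells at an unadjusted P up to 0.05 and a fold change of at least 1.5, but not after adjustment (log2 fold change -0.94 ± 0.32 SE, limma, adjusted P = 0.413).

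**Figure D5:**
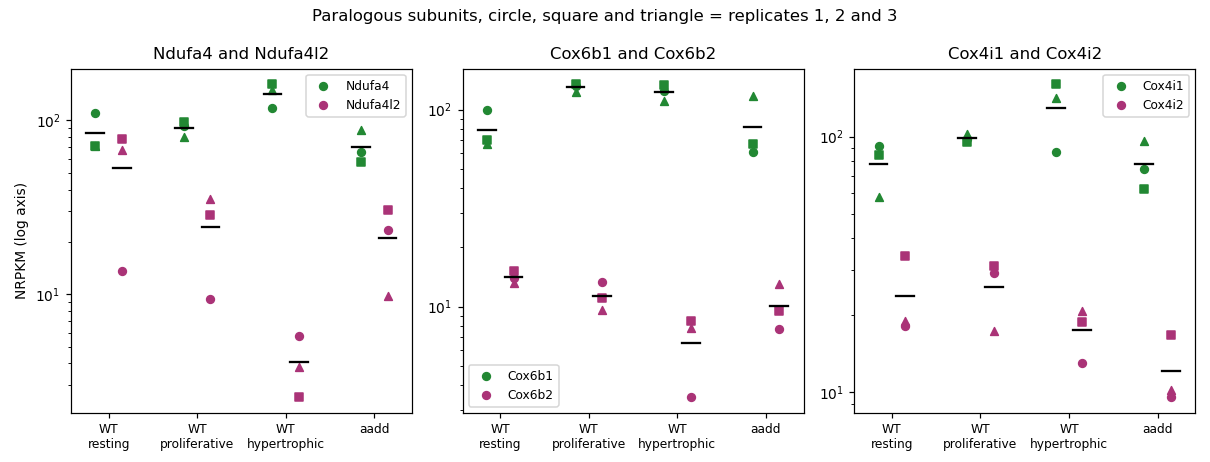
NRPKM of paralogous subunits on log axes in each library, with the shape giving the replicate and the bars the group means. *Ndufa4l2* and *Cox6b2* are lowest in WT hypertrophic cells while their partners *Ndufa4* and *Cox6b1* are not, and *Cox4i2* is lowest in *aadd*.

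In *aadd* cells none of the 78 genes was called different from WT resting cells, whereas *Cox4i2*, which the symbols leave out, was called lower as given above. At an unadjusted P up to 0.05 in limma 0 of 78 were higher and 0 were lower, where 5.22% and 4.36% of all genes tested were, and with a fold change of at least 1.5 or an adjusted P under 0.05 the count was also 0 (6.56% and 0.119% of all genes). The median log2 fold change was 0.02 against 0.01 for all genes, with 42 members above 0, and medians by complex ran from -0.07 in complex III to 0.06 in complex V. The median standard error of a member's log2 fold change was 0.23, which limits what a single gene could show, and the test does not show that the groups were alike. The smallest P belonged to *Cox6b2* with a log2 fold change of -0.51 ± 0.22 (SE, limma, adjusted P = 0.54), and the furthest value was that of *Ndufa4l2* with -1.12 ± 0.73 (limma adjusted P = 0.688).

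Single *aadd* libraries did differ from each other. Replicate 3 had the highest value of the group for 49 of the 78 genes, and its median level relative to the WT resting mean was 0.22 on the log2 scale against -0.04 and -0.14 in replicates 1 and 2. It was above all WT resting libraries for 34 genes, replicate 1 for 8 and replicate 2 for 4, where 31.9%, 26.3% and 24.1% of all genes tested were. Without WT resting replicate 1 the median log2 fold change was 0.19 against 0.04 for all genes, 59 of 78 members lay above 0, and 2 members were higher and 1 was lower in *aadd* (6.85% and 4.55% of all genes). Without *aadd* replicate 3, 0 were higher and 1 was lower (3.56% and 2.63% of all genes).

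Genes that serve the respiratory chain without being part of it were counted by list. Of 38 assembly factors tested, 7 were higher and 3 lower between WT hypertrophic and WT resting cells at an unadjusted P up to 0.05, with a median log2 fold change of 0.15. All genes tested had 12% higher and 14.4% lower in this comparison. *Pet100*, which serves complex IV assembly, had the smallest P there (log2 fold change 0.83 ± 0.16 SE, limma, adjusted P = 0.0361), followed by *Coa5* with 0.99 (limma adjusted P = 0.0624). Of 18 genes of the citric acid cycle and pyruvate dehydrogenase, 6 were higher and 0 lower with a median of 0.59, led by *Dlat* with 1.06 and *Mdh2* with 0.75. Of 14 carriers and exchangers 5 were higher and 0 lower, among them *Slc25a13*, the aspartate-glutamate carrier, with 1.18 and *Slc25a5*, the adenine nucleotide translocase 2, with 1.44. Of 13 biogenesis regulators 0 were higher and 3 lower, with 6 above 0 and a median of -0.06 against -0.02 for all genes. Without WT resting replicate 1 it was 1 higher and 1 lower with a median of 0.14. Of all 10936 genes 1557 were higher and 1316 lower in that fit, with a median of 0.01. *Polg2*, of the mitochondrial DNA polymerase, and *Pprc1*, a coactivator, were the lowest in P, at -0.62 and -0.42, and the third was *Nrf1* itself at -0.41 (limma adjusted P = 0.179).

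In WT proliferative versus WT resting cells the same lists had 4 higher and 1 lower (assembly factors), 1 and 0 (citric acid cycle), 1 and 1 (carriers) and 0 and 0 (regulators), where 7.11% of all genes were higher and 9.94% lower. In WT hypertrophic versus WT proliferative cells they had 3 and 1, 2 and 0, 2 and 0, and 0 and 1 (10.7% and 8.6% of all genes), with *Coa3* of complex IV assembly at 1.64 and *Ucp2*, an uncoupling protein homolog that macrophages also express, at 2.27 on the log2 scale. In *aadd* versus WT resting cells they had 1 and 0, 0 and 0, 1 and 0, and 0 and 2 (5.22% and 4.36% of all genes). *Mpc1*, of the mitochondrial pyruvate carrier, was higher (0.71 ± 0.27 SE, limma, adjusted P = 0.467) and *Polrmt*, the mitochondrial RNA polymerase, lower (-0.56 ± 0.21, limma, adjusted P = 0.469).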

How the data were processed

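RNA-Seq of 12 libraries was used. Per the labels and the study's methods, RNA was amplified with the NuGEN Ovation V2 system, and the authors aligned reads to mm10, dropped reads of poor quality, duplicates and those with several positions, and computed values in GeneSpring. TopHat is named in the submitters' processing notes. The deposited values are RPKM normalized further between libraries (NRPKM), and that step is not given in the sources used here. The test was that of limma (version 3.58.1, R 4.3.3) on log2 of NRPKM with 0.1 added, and plots were drawn in matplotlib 3.10.9. Genes entered when 3 or more of the 12 libraries reached 5 NRPKM, and P-values were adjusted by Benjamini-Hochberg over all 10936. Pairwise fits used the 6 libraries compared with no covariate. The procedure was tested on simulated data. Depth was inferred from the most frequent value of sensory receptor and keratin-associated genes, taken as 1 read. Transcript lengths, positions and shared 50-base stretches came from GENCODE M21 (GRCm38), and promoters from RefSeq. Lists were fixed by symbol, and the members and lists were chosen with earlier results of these data known. Genes named were core subunits, paralogs, the highest and lowest gene of each complex, the 5 largest rises and falls among members with an unadjusted P up to 0.05 and the smallest P-values of each list. *Uqcr11*, and *Nrf1* in the regulator list, were chosen after their values were seen. The labels do not say whether replicates are separate embryos, and the study calls them independent sets, so P-values measure the spread between these libraries. For libraries sharing a replicate number, deviations from the group mean correlated at 0.281, 0.179 and 0.198 between WT resting and WT proliferative. Replicate 2 of *aadd* and WT resting, from embryos of different genotype, gave 0.28, so such values do not establish pairs. The main fits used no pairing, and the replicate number entered only as a block in 1 alternative. Alternatives tried were 1 in place of 0.1, no filter, a filter over the 6 libraries compared, median-of-ratios and quantile scaling, all 12 libraries in one fit, an intensity trend, the replicate block and each library left out. Restricting the medians to members with under 10% of shared 50-base stretches was chosen after seeing the data. The values of 1 member are not reported here, although it is counted among the 78.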

Additional observations from a re-analysis of the deposited data

How the results depend on the processing

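The median log2 fold changes kept their direction under every alternative run for the 3 comparisons of WT compartments. With each library left out in turn they ranged from 0.18 to 0.40 for WT proliferative versus WT resting, 0.16 to 0.39 for WT hypertrophic versus WT proliferative, 0.47 to 0.70 for WT hypertrophic versus WT resting and -0.10 to 0.19 for *aadd* versus WT resting. For the last, the median was -0.01 over the 49 members that share few bases with other genes. The numbers of members called moved more. With each library left out they ranged from 7 to 27, 2 to 29, 16 to 54 and 0 to 3 in the same order, and from 18 to 47 in the F test over the 4 groups. These counts include members called lower. At the lowest and highest counts of the 3 comparisons of WT compartments, 7 and 25, 0 and 28, and 14 and 52 members were called higher. Of all genes, 4.54% and 8.84%, 5.56% and 18.3%, and 8.3% and 18.7% were called higher there. At the highest counts 2, 1 and 2 members were called lower, against 959, 1764 and 2339 of all 10936 genes. For the lowest counts the share of all genes called lower was not counted. Without the filter on low values 9 members were called between WT proliferative and WT resting and 5 between WT hypertrophic and WT proliferative, where more genes enter the fit. Between *aadd* and WT resting 1 was called with the median of ratios and 1 with the intensity trend, and the cause was not tested. For the fits without the filter, with the median of ratios or with the intensity trend, the share of all genes called was not counted.

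With the replicate number as a block, 20 members were called between WT proliferative and WT resting, 5 between WT hypertrophic and WT proliferative, 23 between WT hypertrophic and WT resting, 0 between *aadd* and WT resting and 28 in the F test. The share of all genes called in these fits was not counted, so the counts cannot be set against it. Outside the first pair of groups, same-numbered libraries did not all correlate above 0.1 (-0.058 to 0.124 between WT hypertrophic and WT proliferative). The numbers were not taken as pairing libraries in the main fits of any groups. Depth limits the lowest genes, with an inferred 4.49 reads behind the smallest *Cox6b2* value.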
